A study of Mus musculus with 42 samples.

Results

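The first and the last points of a 120 h course of embryonic stem cell differentiation were compared, gene by gene. The start was the 0 h time point, where replicates A and B gave 1 library each, and the end was the 114 h and 120 h time points pooled, which gave 4 libraries. These 6 libraries of the 42 in the series (21 time points, every 6 h) were chosen by their labels alone, and all 14296 genes of the processed data were compared. The cells were W9.5 mouse embryonic stem cells of strain 129X1/SvJ, an unmodified line at low passage, left to differentiate without direction into embryoid bodies after leukemia inhibitory factor (LIF) was withdrawn. The 0 h cultures were the stem cells at the induction of differentiation. The replicates were biological duplicates of this single line, so the values describe W9.5 cells and no other line. The p-values rest on the spread between duplicates, pooled over the 21 time points of all 42 libraries.

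Mouse embryonic stem cells kept with LIF hold a naive pluripotent state that rests on transcription factors such as Pou5f1, Sox2, Nanog, Esrrb and Klf4. When the signal is withdrawn the cells pass through a state like that of the early epiblast, switch on genes of the primitive streak and form clumps, the embryoid bodies, in which derivatives of the 3 germ layers arise side by side. A late library is therefore the RNA of a mixture of cell types. In such bulk samples a fall of a transcript because fewer cells of a type are present and a fall because each cell holds less of it cannot be told apart.

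Expression was measured by stranded sequencing of poly-A RNA, and values are log2 CPM, the log2 of a gene's share of the counted reads scaled to a fixed library size, normalized by the authors for library size. Between 21465541 and 25960877 reads were counted on these genes in each of the 6 libraries, and a level of 3 reads was 0.109 to 0.144 CPM. A difference is given as the mean of the 4 late libraries minus the mean of the 2 libraries at 0 h, on the log2 CPM scale, with its standard error (SE) from limma, and a gene was called when the Benjamini-Hochberg adjusted p was under 0.0001. The markers of embryonic stem cells were high at 0 h, where Pou5f1, Sox2, Nanog, Esrrb, Zfp42 and Klf4 had means between 8.43 and 9.98 log2 CPM. The series gives the late libraries the same cell type label as the 0 h libraries, and their markers are described with the results.

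At the end of the course 2416 of the 14296 genes were higher than at 0 h (16.9%) and 2154 were lower (15.1%), together 32% of all genes tested. A change of at least 4-fold was called for 899 genes upwards (6.29%) and for 475 downwards (3.32%), so the large changes were mostly gains. The called gains had a median difference of 1.45 and the called falls one of -1.16, while the median over all genes was -0.003. All 4570 called genes moved in the same direction in replicate A and in replicate B, and in 4569 of them the 0 h and the late libraries did not overlap. Non-overlap was also found for 70.8% of all genes. The call rests on the mean over both replicates and on their spread, so the shared direction of called genes is nearly fixed by it. The falls rested on the 0 h pair more than the gains did. Without the 0 h library of replicate A, 1311 falls were called, and without that of replicate B 1243.

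**Figure D1:**
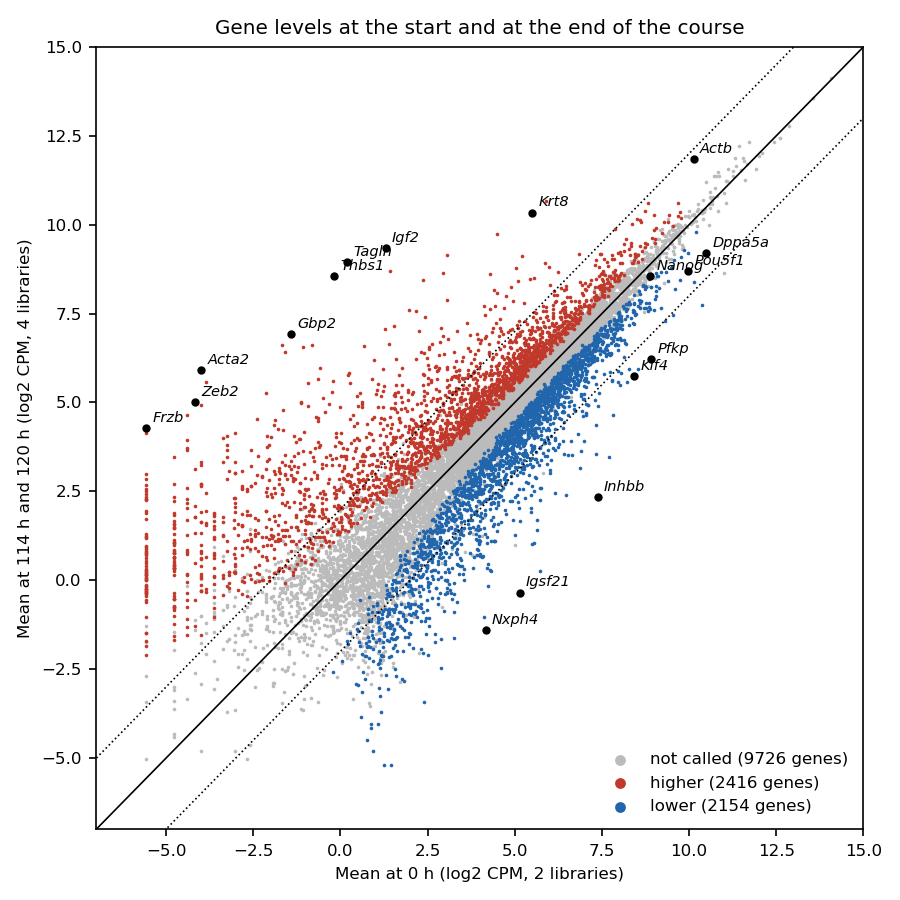
Mean level of each gene at 0 h (x axis, log2 CPM, 2 libraries) against its mean at 114 h and 120 h (y axis, log2 CPM, 4 libraries), with genes called higher in red, called lower in blue and not called in grey. The solid line marks equal levels and the dotted lines a 4-fold difference. The columns of points at the left edge are genes with 0 or a few reads at 0 h, and the gains reach farther from the line than the falls.

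Many of the largest gains were switches from almost no reads. Of the 2416 higher genes, 65 had 0 reads in both libraries at 0 h and 219 had at most 3 reads in each. In the reverse direction, 8 of the 2154 lower genes had at most 3 reads in every late library and 0 had no reads there. These counts are no even comparison of the directions, since the late condition had to hold in more libraries than the one at 0 h. Which genes could be counted also depended on the authors' filter on low genes, described below with the germ layers. For genes that start near 0 reads the fitted difference depends on the offset that voom adds to each count, so reads at 0 h are given for many of them, and the fitted values of such genes are no exact fold.

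Acta2, the smooth muscle actin, had the largest difference of the genes that reached a mean of 3 log2 CPM. It was counted with 1 read in each 0 h library (-3.98 and -4.01 log2 CPM), and stood at 5.87 and 5.35 at 114 h and at 6.25 and 6.15 at 120 h, in the order A and B. Its CPM was 1480 times that at 0 h, with an exact counting interval of 410 to 12200. The fitted difference was 9.90 ± 0.69 (SE, adjusted p = 1.15e-12).

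Frzb, a secreted antagonist of Wnt ligands, had 0 reads at 0 h and 4.06, 4.80, 4.15 and 4.07 log2 CPM in the late libraries (114 h A and B, then 120 h A and B). Against a floor of 3 reads per library it was at least 157-fold higher. Pcdh7, a protocadherin of the cell surface, had 0 reads as well and 4.10, 3.95, 4.38 and 4.12 log2 CPM late, at least 141-fold higher. Both genes were far above the floor in every late library.

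Zeb2, a repressor known for its part in the epithelial to mesenchymal transition, had 3 reads over both 0 h libraries and 5.19, 4.91, 5.06 and 4.89 log2 CPM late. Its CPM was 513 times that at 0 h, with a counting interval of 175 to 2490. Nr2f2, a nuclear receptor of mesoderm, had 2 reads at 0 h and 4.70, 4.25, 4.83 and 4.77 log2 CPM late, a ratio of 601 with an interval of 166 to 4960. The remaining genes of this kind among the 15 largest gains were Gbp3, Ccn4, Itgb8 and Cxcl11, each with 1 or 2 reads at 0 h and between 3.29 and 4.37 log2 CPM late. Ccn4 is a matricellular protein induced by Wnt signalling and Itgb8 an integrin subunit. Their ratios to 0 h were 370, 529, 311 and 308, with lower bounds of 102, 94.7, 85.9 and 85.1.

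Tagln and Thbs1 started from more reads. Tagln, which encodes the actin-binding protein transgelin, had 0.11 and 0.29 log2 CPM at 0 h, 9.11 and 8.96 at 114 h and 8.85 and 8.87 at 120 h. Its difference was 8.75 ± 0.19 (SE, adjusted p = 1.49e-23), a 430-fold gain. Thbs1, the matrix glycoprotein thrombospondin, rose from -0.43 and 0.08 to 8.91, 8.28, 8.59 and 8.45, a difference of 8.74 ± 0.31 (adjusted p = 8.2e-19). In both genes the gap between the groups was many times the spread within them, in a set picked for large gains without overlap. The other genes of this set were Sema3c, a secreted guidance factor, with a difference of 9.42 ± 0.48 from 5 reads in the 0 h library of replicate A and 0 in that of B, the protease Prss23 with 8.92 ± 0.47 from 4 and 0 reads, the guanylate-binding protein Gbp2 with 8.33 ± 0.40 from 9 and 8 reads, and ENSMUSG00000028269.4 with 8.28 ± 0.27, an identifier for which the annotation used here gave no symbol.

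**Figure D2:**
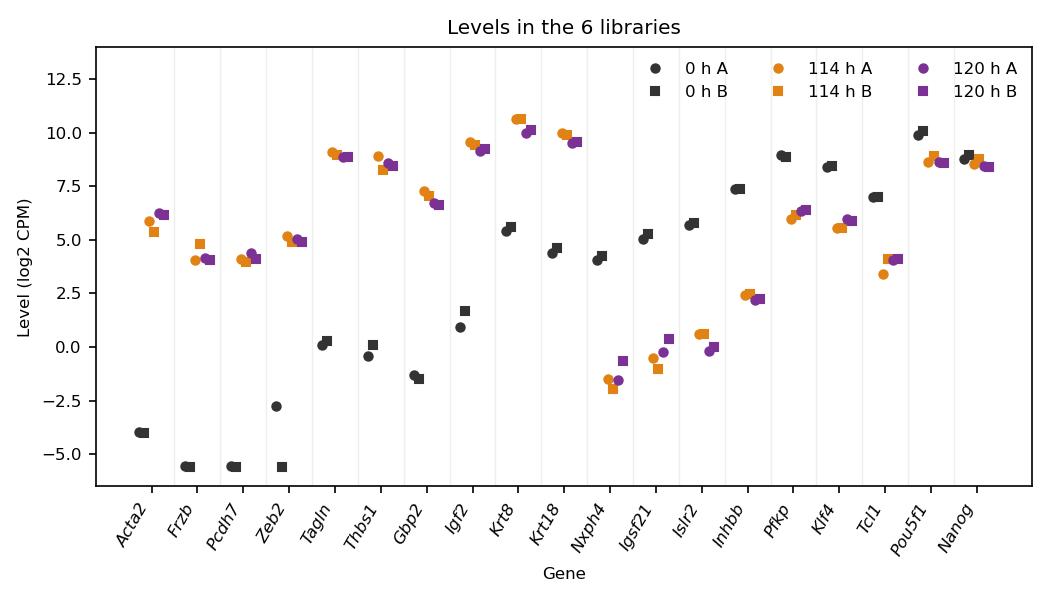
Level of 19 genes (y axis, log2 CPM) in each of the 6 libraries, with the 0 h libraries in black, 114 h in orange and 120 h in purple, circles for replicate A and squares for replicate B. From Acta2 to Krt18 every late library lies above both 0 h libraries, from Nxph4 to Pou5f1 every late library lies below them, and the Nanog values of 0 h and 114 h meet.

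Of the genes that reached 3 log2 CPM on average at 0 h, the largest falls were smaller than the largest gains. Genes below that level were left out of this set. They included the noncoding genes 1700057H21Rik (difference -6.445, 0 h mean 1.24 log2 CPM) and Gm807 (-5.36, 0 h mean 2.89). Nxph4, which encodes a neurexophilin, a secreted ligand of neurexins, had 4.08 and 4.26 log2 CPM at 0 h, and -1.47, -1.95, -1.54 and -0.64 late, a difference of -5.57 ± 0.30 (SE, adjusted p = 4.14e-15). Igsf21, an adhesion protein of the immunoglobulin superfamily, fell from 5.02 and 5.26 to -0.52, -1.01, -0.23 and 0.38, a difference of -5.49 ± 0.34 (adjusted p = 1.05e-13). Islr2, another surface protein with immunoglobulin and leucine-rich repeats, fell from 5.70 and 5.77 to 0.60, 0.61, -0.17 and 0.02. These 3 genes code for surface or secreted proteins, and in each the groups were separated by more than 4 log2 units.

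Inhbb, the subunit of activin B and inhibin B, fell from 7.36 and 7.38 log2 CPM at 0 h to 2.42 and 2.47 at 114 h and 2.20 and 2.25 at 120 h. This was a 32.9-fold fall, with a difference of -5.04 ± 0.25 (SE, adjusted p = 7.28e-16). Scd1, the desaturase that makes monounsaturated fatty acids, fell from 7.75 and 7.67 to 3.36, 3.85, 3.42 and 3.25, an 18.9-fold fall (difference -4.24 ± 0.12, adjusted p = 7.28e-21). That every late library lay below both 0 h libraries was a condition for this set, not a result. The other falls of this set ran from -5.13 to -4.02. They included the homeobox genes Nkx6-3 and Pou4f2 (-4.51 ± 0.41 and -4.46 ± 0.28), the citrate transporter Slc13a5 (-4.42 ± 0.27), the endothelial nitric oxide synthase Nos3 (-4.02 ± 0.25), and also Ndufa4l2, Meltf, Phf11d, the pseudogene Btnl7-ps and the long noncoding RNA Gm15816. Some of these genes lie next to each other. On GRCm38, Ndufa4l2 is at chromosome 10, 127514967 to 127517154, and Nxph4 at 127525473 to 127534559 of the same chromosome. Gm15816 (chromosome 8, 23138794 to 23149585) lies beside Nkx6-3 (23153269 to 23158948).

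By the difference in CPM rather than by fold, the largest gains were mostly in genes of the cytoskeleton. CPM is a share of reads and is not corrected for transcript length. Actb, the cytoplasmic beta actin, gained most, from 1132 CPM at 0 h to 3732 CPM at the end. Tpm1, a tropomyosin, went from 60.1 to 1637 CPM, Krt8, a keratin of simple epithelia, from 45.3 to 1322 CPM, and Myh9, the heavy chain of nonmuscle myosin, from 430.1 to 1342 CPM. The fifth gene of this set was the imprinted gene Peg10, from 451 to 1568 CPM. The largest losses were in Txnip, a thioredoxin inhibitor that responds to glucose, from 1319 to 223 CPM, in Dppa5a, an RNA-binding protein of pluripotent cells, from 1450 to 602 CPM, and in Mkrn1, a ubiquitin ligase, from 1133 to 335 CPM. Pou5f1 went from 1013 to 417 CPM and Zfp57, a zinc finger protein that guards imprints, from 740 to 182 CPM. All 10 genes were called, and the fall of Dppa5a (difference -1.29 ± 0.21) was no longer called at 114 h alone or without either of the 0 h libraries.

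The actin gains reached through the contractile genes as a group. Of 29 measured genes of the actin cytoskeleton and of contractility, 26 were higher and 0 lower, with a median difference of 2.46. This group was put together after the values had been seen and is a description only. Counts of called members in this and all later lists stand beside 16.9% of all genes called higher and 15.1% called lower. The not called members were Tagln2, Actn4 and Lmod1. The summed level of the group was between 4605 and 4751 CPM in the 0 h libraries and between 13931 and 17293 CPM in the late ones. Acta1, the skeletal muscle actin, rose from -2.10 and -1.07 log2 CPM to 6.71, 6.38, 6.28 and 6.34 (difference 8.01 ± 0.62, adjusted p = 1.22e-11). Myl9, a regulatory light chain of smooth muscle myosin, rose from -1.86 and -2.13 to 4.32, 4.05, 3.84 and 3.85, and Fhl2, a cofactor of muscle genes, from -2.39 and -1.89 to 3.15, 3.48, 2.99 and 2.87. The calponin Cnn2 had a difference of 3.60 ± 0.13, the caldesmon gene Cald1 one of 3.07 and the focal adhesion gene Vcl one of 1.68. Srf, the factor that binds the CArG box found in front of many actin genes, rose by 0.87.

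The RefSeq windows of 250 bases before to 50 after an annotated start (GRCm38.p6) hold a CArG box, on either strand, in 167 of the 10686 measured genes with a window (1.56%). They hold 1 in 8 of the 25 genes of the actin group that have a window, which are Acta1, Actc1, Actg1, Cnn2, Fhl2, Myl9, Srf and Vcl. Acta2, Tagln and Thbs1 are not among these 8, for want of a box or of a window. The group was chosen after the values had been seen and holds actin genes known for this box. The 2 counts are therefore set side by side only. Stretches of 100 bases upstream of the start of 4 of these genes, read 5′ to 3′ on the strand of the gene, are shown because these 4 had the largest gains of the 8, with the box in capitals. Acta1 is at chr8:123894794-123894893, minus strand, Actc1 at chr2:114052876-114052975, minus strand, Myl9 at chr2:156775258-156775357, plus strand, and Fhl2 at chr1:43196803-43196902, minus strand. A match describes these letters and does not show that the site was bound.
Acta1: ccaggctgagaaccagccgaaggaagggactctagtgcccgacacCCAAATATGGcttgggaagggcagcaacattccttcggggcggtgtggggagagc
Actc1: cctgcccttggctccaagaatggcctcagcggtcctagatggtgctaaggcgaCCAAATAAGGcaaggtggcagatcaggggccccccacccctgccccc
Myl9: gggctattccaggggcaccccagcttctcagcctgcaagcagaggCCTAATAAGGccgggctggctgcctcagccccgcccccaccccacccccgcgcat
Fhl2: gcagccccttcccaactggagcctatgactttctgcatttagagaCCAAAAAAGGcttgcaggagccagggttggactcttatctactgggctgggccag

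Genes of the immediate early response, which cells switch on within minutes of growth factor or mechanical stimuli, were also higher at the end. Of 19 measured, 16 were higher and 0 lower, with a median difference of 2.89 (2.65 when Egr2, at 0 reads at 0 h, was set to its bound). Ccn1, a matricellular protein and a target of the coactivator YAP, rose from 1.26 and 1.57 log2 CPM to 9.10, 8.82, 8.43 and 8.47. Its difference was 7.29 ± 0.13 (SE, adjusted p = 5.41e-25). Ccn2, a close relative, rose by 5.71 on the log2 scale. Subunits of the AP-1 factor rose as well, by 5.84 ± 0.22 for Fosl2, 4.04 ± 0.13 for Jun, 2.94 for Junb, 2.65 for Fos and 1.02 for Jund. Fosl1 (1.04), Ier2 (0.50) and 1 further member were not called.

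Genes known to respond to interferon formed another set of gains. Of 27 measured genes of the interferon response and of antigen presentation, 17 were higher and 1 lower, with a median difference of 1.86. This set too was put together after the values had been seen. Gbp2, a GTPase induced by interferon, had -1.31 and -1.50 log2 CPM at 0 h, 7.27 and 7.05 at 114 h and 6.74 and 6.62 at 120 h (difference 8.33 ± 0.40, adjusted p = 4.47e-16). Cxcl10, a chemokine, rose from -2.75 and -4.01 (3 and 1 reads) to 3.91, 4.20, 3.84 and 4.09 (7.39 ± 0.53, adjusted p = 2.62e-12). B2m, the light chain of class I antigen complexes, rose from 4.01 and 4.07 to 6.90, 6.66, 6.62 and 6.88. Further gains were Oasl2 (5.85), Psmb8 (5.46), Usp18 (2 reads at 0 h, CPM ratio 59.8, counting interval 16.4 to 496), Gbp7 (5.20), Gbp4 (4.10), Gbp9 (3.36), Irf1 (1.86), Tap2 (1.79), Bst2 (1.25) and Tap1 (0.86).

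The set did not move as a whole. Stat2, a transducer of interferon signals, fell by 0.81. The class I heavy chain gene H2-D1 (0.24) was not called. With a filter that kept genes of at least 0 log2 CPM on average over the course, 9 of the 17 gains were left, because the remaining genes were no longer tested. The guanylate-binding genes are close relatives, Gbp2, Gbp3 and Gbp7 on chromosome 3 and Gbp4 and Gbp9 on chromosome 5, and how the counting divided reads among them is not given in the sources used here. Of the 3 measured markers of blood cells, Laptm5 fell from 7.39 and 7.25 to 4.25, 4.34, 4.30 and 4.61, Itgam had a difference of -2.03 and Cd34 one of 0.60, and their summed level was 155.6 to 171.2 CPM at 0 h and 21.98 to 26.72 CPM late. The part of immune cells in these gains was not tested.

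The letters TTTCNNTTTC, the core of the element bound by interferon-regulated factors, were searched on both strands of the same windows, where N is any base. They occur in 363 of 10686 genes (3.4%) and in 11 of the 21 genes of the interferon set with a window. Since 77.8% of the set has a window, under the 80% taken here as the least for a comparison of shares, that comparison is void and the 2 counts are given side by side only. Stretches of 4 genes that rose are shown with the match in capitals. Gbp2 is at chr3:142620559-142620658, plus strand, Ifit1, an antiviral protein with 0 reads at 0 h that was at least 9.61-fold higher, at chr19:34640759-34640858, plus strand, with 2 matches, Isg15, a ubiquitin-like protein with 1 read at 0 h and a CPM ratio of 82 (counting interval 14.5 to 3260), at chr4:156200830-156200929, minus strand, with 3 matches that overlap each other, and Cxcl10 at chr5:92349040-92349139, minus strand. In Isg15 and Cxcl10 the match is on the strand opposite to the gene.
Gbp2: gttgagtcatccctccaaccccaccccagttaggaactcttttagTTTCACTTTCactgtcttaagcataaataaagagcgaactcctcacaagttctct
Ifit1: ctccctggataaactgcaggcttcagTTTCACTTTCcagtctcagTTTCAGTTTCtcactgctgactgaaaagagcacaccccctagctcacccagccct
Isg15: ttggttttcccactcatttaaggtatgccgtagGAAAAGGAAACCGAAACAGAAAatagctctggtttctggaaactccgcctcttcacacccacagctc
Cxcl10: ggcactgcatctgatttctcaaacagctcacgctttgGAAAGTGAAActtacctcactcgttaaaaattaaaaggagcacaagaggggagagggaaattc

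Genes of naive pluripotency were mostly lower at the end, but few were lost. Of 16 measured, 9 were lower and 1 higher, with a median difference of -1.09. Tcl1, a cofactor of AKT kinase, fell most, from 7.01 and 6.99 log2 CPM to 3.41, 4.12, 4.07 and 4.11 (difference -3.07 ± 0.24, adjusted p = 9.52e-12). Klf4 fell from 8.40 and 8.46 to 5.55 and 5.55 at 114 h and 5.99 and 5.90 at 120 h (-2.68 ± 0.18, adjusted p = 5.52e-13), which left 54.1 of 344 CPM. Zfp57 fell by 2.07, Fgf4, the growth factor that drives stem cells towards differentiation, by 2.08, Zfp42 by 1.52 and Esrrb by 1.26.

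Nanog, a central factor of the naive state, was not called. It had 8.79 and 8.98 log2 CPM at 0 h, 8.54 and 8.78 at 114 h and 8.46 and 8.40 at 120 h, a difference of -0.34 ± 0.11 (SE, adjusted p = 0.00676). The 114 h library of replicate B and the 0 h library of replicate A met at nearly the same level. Nanog had been lower in between, with its lowest mean of 6.98 at 54 h. Dppa3, a maternal factor also known as Stella, was the exception that rose, from 0.63 and 0.88 to 3.36, 3.71, 3.68 and 4.07 (2.95 ± 0.33, adjusted p = 1.36e-08).

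The general factors of pluripotency fell less. Of 13 measured, 6 were lower and 1 higher, with a median difference of -0.70, and without the 0 h library of replicate A, or without that of replicate B, 3 were lower. Pou5f1 had 9.88 and 10.08 log2 CPM at 0 h, 8.63 and 8.93 at 114 h and 8.65 and 8.59 at 120 h, a 2.43-fold fall (difference -1.28 ± 0.15, adjusted p = 4.16e-08). Sox2 fell by 0.97 ± 0.09 and Tdgf1, a coreceptor of Nodal, by 1.40. Lin28a, which blocks the maturation of let-7 microRNAs, rose by 1.15. Sall4 (0.13) and Trim71 (0.25) were not called.

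Genes of the formative and primed epiblast were mostly higher at the end than at the start. Of 13 measured, 10 were higher and 1 lower, with a median difference of 2.23. Fgf5, the classic marker of the epiblast, had -0.81 and -0.84 log2 CPM at 0 h, 6.99 and 6.81 at 114 h and 6.46 and 6.20 at 120 h (7.44 ± 0.15, adjusted p = 4.86e-24). Zic2, a zinc finger factor, rose by 5.62 ± 0.11, Fgf8 by 5.29 and Pou3f1 by 2.23. The de novo methyltransferase gene Dnmt3b rose by 1.25 and Otx2 by 1.20. Foxd3 fell by 2.81, and Nodal (0.18) and Dnmt3a (0.14) were not called.

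Genes of the primitive streak, the structure through which mesoderm and endoderm leave the epiblast, had the highest median difference of the lists of developmental stages, 4.81 over 12 genes (4.19 with Foxa2, at 0 reads at 0 h, at its bound). Of these 12, 9 were higher and 1 lower. T, the Brachyury factor of early mesoderm, rose from -1.17 and -2.13 log2 CPM to 4.33, 4.87, 5.12 and 4.81 (6.43 ± 0.39, adjusted p = 7.26e-14). Wnt3, a ligand that starts the streak, rose by 6.06 ± 0.37, Sp5, a target of Wnt signals, by 7.14 ± 0.82 from 3 and 2 reads at 0 h and Mixl1 by 2.72. The levels stayed low in absolute terms, since the list summed to 23.61 to 24.18 CPM at 0 h and to 120.7 to 169.6 CPM late. Fewer were called when low counts weighed less, with 4 under voom precision weights.

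**Figure D3:**
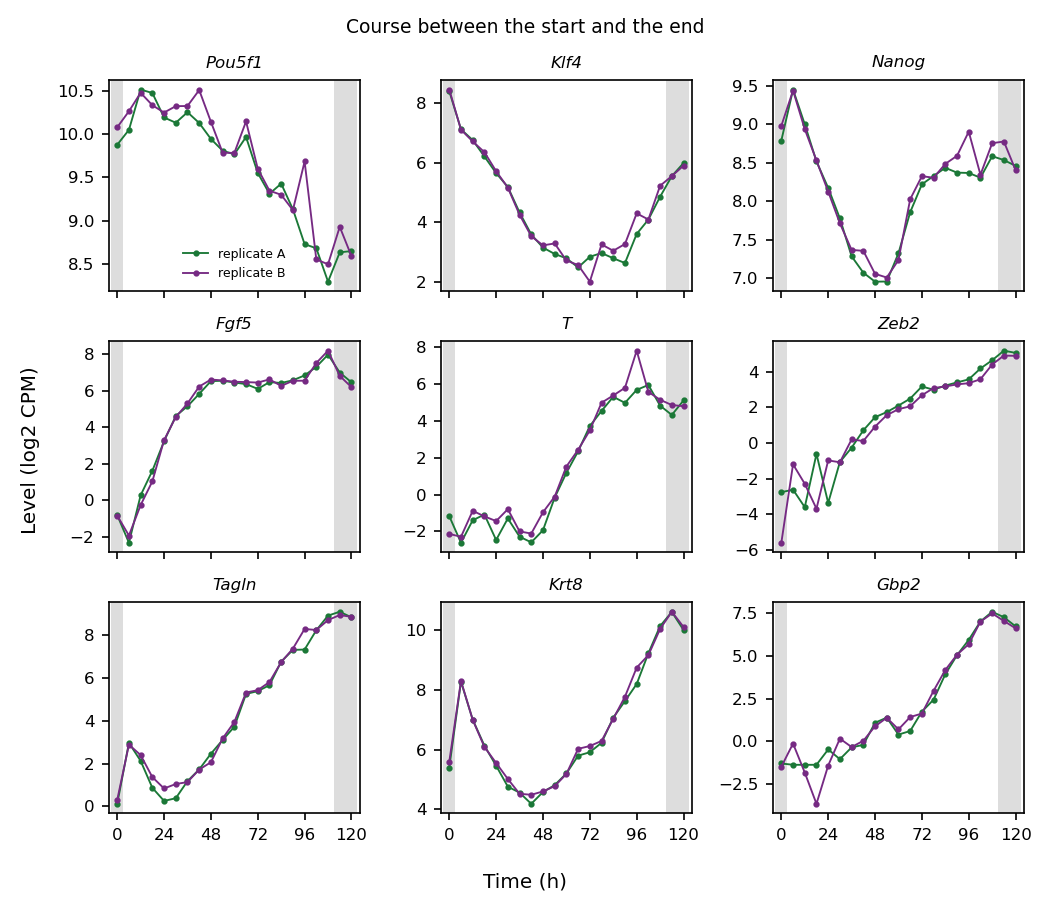
Level (y axis, log2 CPM) of 9 genes over the course (x axis, hours), with replicate A in green and replicate B in purple and the compared time points, 0 h and 114 to 120 h, shaded grey. Nanog and Klf4 dip and return in part, Pou5f1 falls late, Fgf5 is reached by 48 h, T and Zeb2 rise later, Tagln and Krt8 pass through a first peak at 6 h, and Gbp2 rises from 72 h.

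Genes of the germ layers were counted separately. Only genes above 1 CPM in 2 or more samples were in the data. A gene silent at 0 h could pass this filter only through later time points, so the shares of gains are partly set by it. This limit holds for the primitive streak and the other lists of lineage genes too. Measured were 16 of 25 listed genes of the neuroectoderm, 14 of 22 of the endoderm, 12 of 16 of the primitive streak and 7 of 14 of the trophoblast. Of 16 measured genes of the neuroectoderm, 11 were higher and 2 lower, with a median difference of 3.15. Sox1, the earliest marker of neural cells, rose from 1.84 and 1.70 log2 CPM to 5.39, 5.40, 5.51 and 5.62 (3.71 ± 0.24, adjusted p = 1.69e-13), and the intermediate filament gene Nes by 3.60. Pax3 (6.62) and En1 (6.46) rose from 1 and 2 reads at 0 h. Tubb3, a tubulin of differentiated neurons, had a difference of -0.64 and was not called, and Ncam1 fell by 1.24. For Pax3 and En1 the ratios of the CPM were 177 and 99.8, with lower bounds of 31.5 and 27.4.

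Of 14 genes of the endoderm, 6 were higher (42.9%, against 16.9% of all genes) and 1 lower (7.14%, against 15.1%), with a median of 1.06. Krt19 and Dab2 rose by 3.31 and 4.41, and Hnf4a had 2.34 and 2.17 log2 CPM at 0 h and -1.29, -2.85, -1.88 and -2.14 late, a difference of -4.29 ± 0.92 that was not called (adjusted p = 0.000233). Of 16 genes of mesoderm and blood vessel, 4 were higher (25%) and 5 lower (31.25%), with a median of 0.69. Without the 0 h library of replicate A 2 were higher. Kdr, the VEGF receptor of vessel progenitors, rose from -5.56 and -2.13 to 2.15, 2.88, 2.58 and 2.15, while Pecam1, which marks endothelium and also stem cells, fell from 6.56 and 6.52 to 3.22, 3.20, 3.82 and 3.85. The list thus held genes that were already expressed at 0 h and fell beside genes that rose from near 0 reads. Of 10 measured Hox, Cdx and Hotairm1 genes, 3 were higher (30%) and 0 lower, and 33 further members of that list were not analysed here.

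**Figure D4:**
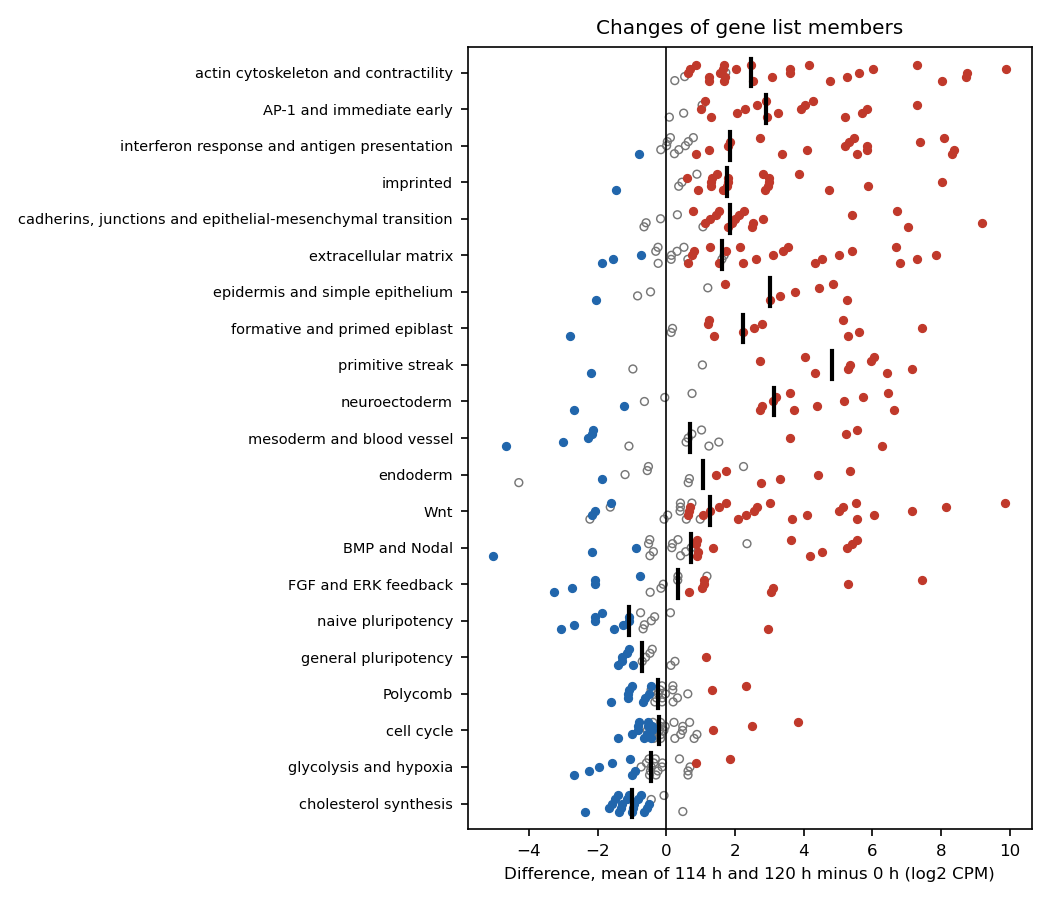
Difference of each member of 21 gene lists (x axis, mean of 114 h and 120 h minus 0 h, log2 CPM), red where called higher, blue where called lower and open where not called, with a black bar at the median of the list. The lists of actin and interferon genes were chosen after the values had been seen. Most actin, immediate early and imprinted genes lie to the right of 0 and most cholesterol synthesis genes to the left, with Ascl2 (-1.46) and Sc5d (0.48) among the exceptions.

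Both epithelial and mesenchymal genes were among the gains. Of 22 measured cadherins, junction genes and regulators of the epithelial to mesenchymal transition, 17 were higher and 0 lower, with a median difference of 1.86. Cdh1, the epithelial cadherin, rose from 9.07 and 8.91 log2 CPM to 10.62 and 10.32 at 114 h and 10.08 and 10.07 at 120 h (1.28 ± 0.09, adjusted p = 1.14e-12). Cdh2, the neural cadherin of mesenchyme, rose from -1.17 and -1.50 to 3.94, 3.93, 4.16 and 4.25 (5.41 ± 0.29, adjusted p = 5.07e-15). The epithelial splicing factors Esrp1 and Esrp2 rose by 2.49 and 2.11 and the tight junction genes Cldn3, Cldn6, Cldn7 and Ocln by 1.79 to 2.25. On the mesenchymal side Twist1 (2.80), Snai2 (2.51) and Vim (1.44) rose beside Zeb2, while Snai1 (1.07) and Zeb1 (-0.59) were not called.

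Of 11 genes of the epidermis and of simple epithelia, 7 were higher and 1 lower (median 3.03). Krt8 had 5.40 and 5.60 log2 CPM at 0 h, 10.62 and 10.62 at 114 h and 10.01 and 10.11 at 120 h (4.84 ± 0.11, adjusted p = 1.49e-23). Krt18, its partner in the filaments of simple epithelia, went from 4.39 and 4.61 to a late mean of 9.75 (5.25 ± 0.14, adjusted p = 1.55e-21). Dsp, of desmosomes, and Sfn, an epithelial 14-3-3 protein, rose by 3.03 and 3.76. The epidermal keratin Krt17 fell by 2.04, and Krt5, Krt14 and Trp63 were not analysed here. Of 7 trophoblast genes 4 were higher (57.1%) and 1 lower (14.3%), against 16.9% and 15.1% of all genes. Gata3 rose by 7.33 ± 0.56 (0 and 4 reads at 0 h) and Tfap2c by 2.49, and the trophoblast gene Ascl2 fell by 1.46.

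Of 33 genes of the extracellular matrix, 20 were higher (60.6%, against 16.9% of all genes) and 3 lower (9.09%, against 15.1%), with a median of 1.62. Col1a2, a chain of collagen I, rose from -3.24 and -3.27 log2 CPM (2 reads in each) to 3.56 and 3.35 at 114 h and 4.85 and 4.48 at 120 h (7.31 ± 0.64, adjusted p = 1.48e-10). Tnc, tenascin, had 0 reads at 0 h and was at least 41.3-fold higher. Genes of the basement membrane moved in both directions. Col4a5 (4.32), Lamb1 (1.28) and Col4a2 (0.76) rose, Lama1 (-1.88), Nid1 (-1.56) and Nid2 (-0.73) fell, and Lamc1 (-0.31), Lama5 (0.15) and Fn1 (-0.24) were not called. Of 10 markers of fibroblasts and feeder cells 7 were higher and 2 lower, with a summed level of 47.68 to 50.58 CPM at 0 h and 610.8 to 689.9 CPM late. Most of that sum was Tagln and Acta2, and the other 8 markers summed to 46.58 to 49.34 CPM at 0 h and 72.58 to 108.3 CPM late. At 0 h Col3a1 and Dcn had 0 reads and Postn had 1, and Thy1 fell from 4.27 and 4.47 to 1.70, 0.79, 1.79 and 1.85. Acta2 and Tagln stand in this list and in the actin group, and the part of fibroblasts in their gains was not tested.

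Of 35 measured genes of the Wnt pathway, 22 were higher (62.9%), 3 lower (8.57%) and 10 not called, with a median difference of 1.26. Of all genes 16.9% were higher and 15.1% lower. Among the ligands Wnt3, Wnt4 (5.54), Wnt8a (5.16), Wnt5a (3.02) and Wnt7b (2.65) rose, and among the receptors Fzd1 (5.02), Fzd2 (4.09) and Fzd8 (3.65), while Fzd5 fell by 1.62. The targets Axin2 (2.08), Lef1 (2.55) and Rnf43 (2.33) rose. The secreted inhibitor Dkk1 had 0 reads at 0 h and 2.47, 2.86, 2.44 and 2.55 log2 CPM late, at least 47.7-fold higher, while Sfrp1, another inhibitor, fell by 2.17 and Notum, which inactivates Wnt ligands, by 2.07.

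Of 25 genes of the BMP and Nodal pathways, 11 were higher (44%, against 16.9% of all genes) and 3 lower (12%, against 15.1%), with a median of 0.73. Ligands moved in opposite directions. Bmp4 fell from 7.13 and 7.08 log2 CPM to 4.79, 4.95, 4.96 and 5.07 (-2.16 ± 0.23, adjusted p = 6.95e-09), and Bmp2 (2 and 4 reads at 0 h) and Bmp7 rose by 5.41 and 1.35. The BMP target Id3 rose from 1.58 and 1.94 to 5.86, 6.42, 5.85 and 5.70 (4.20 ± 0.20, adjusted p = 3.12e-16), Msx2 by 4.52, and Id1 and Id2 by 0.89 and 0.91. Nodal itself and its inhibitors Lefty1 (0.57) and Lefty2 (-0.48) were not called. Of 19 genes of FGF signalling and its feedback, 8 were higher (42.1%) and 5 lower (26.3%). The receptor Fgfr2 (3.10) and the phosphatase Dusp4 (3.06) were among the gains and Etv4 (-3.26), Fgfr4 (-2.74) and Spry4 (-2.08) among the falls.

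Imprinted genes, which are expressed from the copy of only 1 parent, were mostly higher. Of 23 measured, 19 were higher and 1 lower, with a median difference of 1.75 (1.65 with Airn and Dcn, at 0 reads at 0 h, at their bounds). Igf2, a fetal growth factor, had 0.91 and 1.69 log2 CPM at 0 h, 9.55 and 9.41 at 114 h and 9.14 and 9.24 at 120 h, a 262-fold gain (8.03 ± 0.19, adjusted p = 3.35e-23). H19, the noncoding RNA beside it, rose from 2.36 and 2.17 to 7.35, 6.79, 6.99 and 6.86 (4.73 ± 0.40, adjusted p = 8.03e-11). Peg3 and Grb10 rose by 2.96 and 2.83, and Meg3 and Rian, from a cluster on chromosome 12, by 1.31 and 1.47. The gains thus took in genes of the maternal copy (H19, Meg3) and of the paternal copy (Igf2, Peg3, Peg10). Cdkn1c (0.89) and Igf2r (0.46) were not called. The list summed to 1800 to 1836 CPM at 0 h and to 5863 to 6477 CPM late.

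Noncoding genes were called less often in either direction than protein coding genes. Of 601 antisense, lincRNA, processed transcript and other long noncoding genes, 43 were higher (7.15%) and 63 lower (10.5%). Their median difference was -0.76. Of 13176 protein coding genes, 17.9% were higher and 15.8% lower (median 0.01). The paper found long noncoding RNAs enriched at lower expression levels, and the shares called were not compared at matched levels here. The 5 named by size were Igf2os and H19, which rose, and 1700057H21Rik, Gm807 and Gm15816, which fell. Igf2os had 0 reads at 0 h and 2.60, 2.94, 1.93 and 2.24 log2 CPM late, at least 44.2-fold higher. It lies antisense to Igf2 (chromosome 7, 142659693 to 142670356 on the plus strand and 142650766 to 142666816 on the minus strand). The kit marks strand, but the strand setting of the counting is not given in the sources used here, so reads of the 2 genes cannot be told apart with certainty. The fall of 1700057H21Rik was from 1.01 and 1.46 log2 CPM (113 reads in all) to 1 read over the 4 late libraries.

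Genes of cholesterol synthesis moved downwards together. Of 21 measured, 18 were lower and 0 higher, with a median difference of -0.995. Insig1, which holds back the sterol sensor in the endoplasmic reticulum, fell from 7.01 and 7.07 log2 CPM to 4.64, 4.94, 4.57 and 4.49 (-2.38 ± 0.15, adjusted p = 8.1e-14). Of the enzymes, Msmo1 fell by 1.66 ± 0.12, Dhcr7 by 1.59 ± 0.08, Fdps by 1.495 ± 0.14, Lss by 1.32 ± 0.10 and Hmgcs1 by 0.98 ± 0.12. The transcription factor gene Srebf2 fell by 0.95. Hsd17b7 (-0.07), Ebp (-0.44) and Sc5d (0.48) were not called. In a fit of the 6 libraries alone as 4 against 2, 9 of the 18 falls were called.

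The letters CCAAT, searched on both strands, occur in all 15 genes of this list that have a RefSeq window and in 4604 of 10686 genes (43.1%). Since 71.4% of the list has a window, the comparison of shares is void and the counts are only set side by side. The sterol element TCACNCCAC was found in 1 of the 15 windows, that of Hmgcs1, and in 159 of 10686 genes (1.49%). Stretches of Insig1, the largest fall, of Idi1, with 2 matches, and of Hmgcs1 are shown, with CCAAT in capitals in the first 2 and the sterol element in the last. Insig1 is at chr5:28071162-28071261, Idi1 at chr13:8885506-8885605 and Hmgcs1 at chr13:119690169-119690268, all on the plus strand.
Insig1: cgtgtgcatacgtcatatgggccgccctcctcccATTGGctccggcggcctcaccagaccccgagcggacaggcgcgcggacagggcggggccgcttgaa
Idi1: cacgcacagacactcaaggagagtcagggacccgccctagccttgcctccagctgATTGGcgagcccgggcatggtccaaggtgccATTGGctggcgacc
Hmgcs1: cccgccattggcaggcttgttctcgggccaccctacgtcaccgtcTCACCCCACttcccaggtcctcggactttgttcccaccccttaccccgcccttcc

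Genes of chromatin and of the cell cycle were called lower more often than all genes (15.1%) and higher less often (16.9%). Most of them were not called, as were most of all genes. Of 25 Polycomb genes 9 were lower (36%) and 2 higher (8%), with a median of -0.23, and without the 0 h library of replicate B 5 were lower. Phf19, an accessory subunit, fell by 1.60, Jarid2 by 1.11, Ezh1 by 1.11 and Cbx7 by 1.07, Bmi1 rose by 2.33, and the core subunits Ezh2 (-0.19), Eed (-0.12) and Suz12 (-0.44) were not called. Of 14 genes of DNA methylation 4 were lower (28.6%) and 2 higher (14.3%), with a median of 0.07. Tet2 fell from 7.40 and 7.25 log2 CPM to 5.51, 5.23, 5.63 and 5.68, and Dnmt3l by 1.32. Of 35 cell cycle genes 12 were lower (34.3%) and 3 higher (8.57%), with a median of -0.20. The helicase subunits Mcm3 to Mcm7 fell by 0.40 to 0.79, E2f1 by 1.40 and Ccnb2 by 0.99, and Ccnd2, a cyclin of differentiating cells, rose from 0.27 and -0.23 to 3.54, 3.59, 4.26 and 4.07. Cdk1 (-0.17) and Mki67 (-0.41) were not called.

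Genes often used as references for expression were not all level. Of 13 measured, 3 were higher (23.1%) and 2 lower (15.4%), near the 16.9% and 15.1% of all genes. Actb rose from 10.12 and 10.16 log2 CPM to 12.11, 12.00, 11.67 and 11.64, a 3.27-fold gain (1.71 ± 0.11, adjusted p = 2.71e-13), B2m by 2.73 and Ywhaz by 0.59. Gusb fell by 0.44. Gapdh, in the list of glycolysis, had a difference of -0.37 and was not called. The other 8 genes of the list, among them Tbp (-0.17) and Hprt (-0.37), were not called.

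X-linked genes were higher at the end more often than autosomal genes. Of 505 genes of chromosome X, 160 were higher (31.7%) and 38 lower (7.52%), against 16.5% higher and 15.5% lower of 13650 autosomal genes. The median difference was 0.31 for X and -0.01 for the autosomes, and 0.17 for the 301 X-linked genes with at least 3 log2 CPM at 0 h. The next chromosome by share of gains was 3, with 25.2% higher, and the share on the other autosomes was between 13.1% and 19.8%. In each library the median of X-linked genes relative to 0 h, minus that of autosomal genes, was 0.35 and 0.37 at 114 h (A and B) and 0.33 and 0.37 at 120 h. The gap was already 0.36 and 0.39 at 48 h, so it was not made at the end of the course. It cannot be moved by a scaling factor for the library, because a factor shifts all chromosomes alike. Xist, the noncoding RNA of the inactive X chromosome, had 2.78 and 3.21 log2 CPM at 0 h, -0.52 and -0.44 at 114 h and -0.23 and 2.15 at 120 h, and its fall (-2.76 ± 0.53, adjusted p = 6.3e-05) was not called at 120 h alone. The gene overlaps its antisense partner Tsix, which fell by 1.39. The part of X inactivation, or of a lost or gained X chromosome, was not tested.

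**Figure D5:**
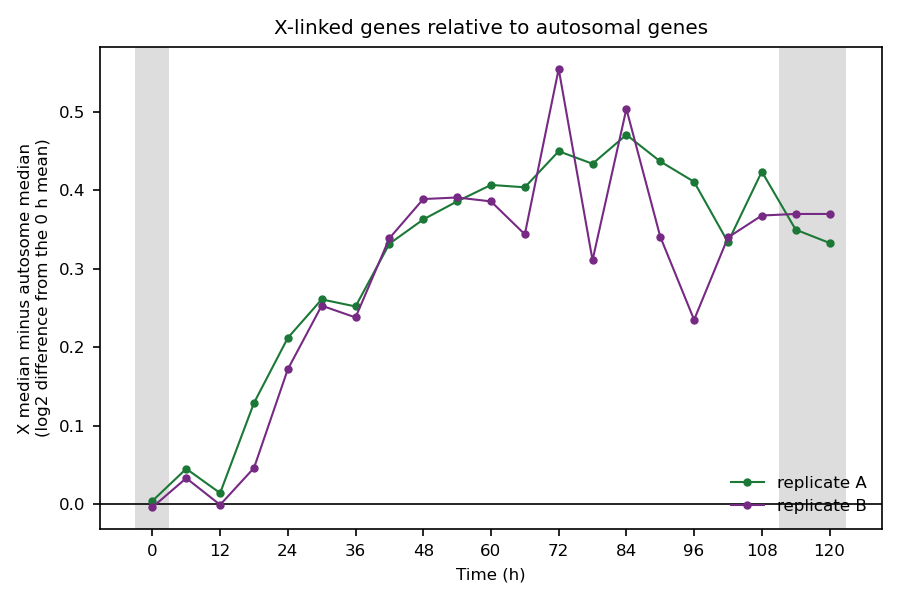
Median over 505 X-linked genes minus the median over 13650 autosomal genes of the difference from the 0 h mean (y axis, log2), in each library of the course (x axis, hours), replicate A in green and B in purple, with the compared time points shaded. The value is 0 at the start, rises between 12 h and 48 h and lies between 0.33 and 0.37 at the end.

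The 2 late time points were close to each other. Between 114 h and 120 h, 6 of 14296 genes were called (0.042%), and the median absolute difference was 0.20, against 0.51 between 0 h and the end. At an adjusted p under 0.05, 862 genes were called, so the late pair was not identical. Car2, carbonic anhydrase, fell from 9.46 and 9.68 log2 CPM at 114 h to 8.71 and 8.68 at 120 h (-0.87, with both far above 5.08 and 5.33 at 0 h). Neat1, the scaffold RNA of paraspeckles, rose from 6.99 and 7.11 to 8.05 and 8.23. Its level at 0 h, 7.64 and 7.68, lay between them, so that it was lower at 114 h and higher at 120 h than at the start. The peptidase-like gene Naaladl1 rose by 2.03, Ano9 by 1.23, D430042O09Rik by 1.11 and Tex14 by 1.09, each back towards its higher level at 0 h.

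The end of the course was not the extreme of most changes. Of the 2416 higher genes, 575 (23.8%) had their highest mean of the course at 114 h or 120 h, against 7.64% of all genes. A further 1026 (42.5%) had it at 96 h to 108 h, against 17.9% of all genes. Of the 2154 lower genes, 420 (19.5%) had their lowest mean at 114 h or 120 h, against 7.9% of all genes. A further 739 (34.3%) had it at 96 h to 108 h, a window with more time points, against 18.7% of all genes. The start was the lowest point for 944 of the higher genes (39.1%, against 12.6% of all genes). It was the highest point for 1293 of the lower ones (60%, against 16.6%). The call itself favours extremes at 0 h and at the end, so these shares are a description only. Klf4 is an example of the return, with its lowest mean of 2.42 at 72 h, and Inhbb another, at 0.27 at 90 h against 2.33 at the end. Fgf5 had its highest mean, 8.08, at 108 h and Tagln its highest, 9.04, at 114 h. Comparing start and end therefore leaves out changes that came and went in between.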

How the data were processed

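RNA of W9.5 cells was sequenced as strand-specific poly-A libraries (paired ends of 100 bases). Per the paper's methods, the authors used Trim Galore for trimming, TopHat2 for alignment to mm10 and HTSeq for counts on GENCODE vM2. Genes above 1 CPM in 2 or more samples were kept, normalized for library size and transformed with voom. Versions are not given in the sources used here. The deposited values are log2 CPM, 1 file per library with 14296 genes.

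Groups were taken from the time point in the labels. limma 3.58.1 (R 4.3.3, lmFit, eBayes with a trend) was fitted to the deposited log2 values of all 42 libraries with a factor of 21 time points (21 residual degrees of freedom), and the mean of 114 h and 120 h minus 0 h was tested with Benjamini-Hochberg adjustment over all genes, two-sided, at an adjusted p under 0.0001, the threshold of the study. The contrast of 120 h and 114 h came from the same fit. All p-values without another name are of this test. Reads were recovered from the values (each was a whole number to within 2.91e-08 of a read). A gene without reads in a group was set against a floor of 3 reads per library, and ratios from 1 to 3 reads have exact conditional 95% intervals, which cover counting error only. Symbols, biotypes and coordinates are those of GENCODE vM21 on GRCm38, matched by identifier for 14177 genes and not for 119. Promoter windows are from RefSeq (GRCm38.p6) for 10686 genes, matched by symbol.

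Named are the 15 largest gains and falls among called, non-overlapping genes that moved alike in both replicates and had a mean of at least 3 log2 CPM in the higher group, the 5 largest gains and falls in CPM, the 5 noncoding genes with the largest change, up to 4 members per list and the members a description turns on. Members and lists were chosen with earlier results of these data known. The lists of actin and interferon genes and the genes named from them were chosen after the values had been seen. Some genes of the lists were not analysed here, and some that the rule names are not reported here. The fit was tested on simulated data. Alternatives were the replicate letter as a block, the 6 libraries alone, voom weights, other scalings, another offset, a filter, single late times, a looser threshold and leaving out each library. Python 3.11.15, pandas 2.3.3, numpy 2.4.6 and matplotlib 3.10.9 were used.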

Additional observations from a re-analysis of the deposited data

Results flagged for a closer look

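In the 4 late libraries, 1 library stood apart from the other 3 for 16 of 295 named genes, with a gap to its nearest neighbour above Dixon's 95% limit for 4 samples. Chance flags about 1 in 20 groups of 4 like samples. The late libraries are of 2 time points and the genes were selected, so this rate is only a rough mark here. The library of 114 h replicate B was apart for 8 of these, listed here with the gap as a share of the range. It was higher for Ankrd37 (0.893, 2.03 against 1.25 to 1.33 log2 CPM), Ebp (0.850, 4.75 against 4.29 to 4.36), Frzb (0.885, 4.80 against 4.06 to 4.15) and Rdh10 (0.906, 5.16 against 4.73 to 4.77). It was lower for Cdon (0.934, 5.74 against 6.13 to 6.16), Lamc1 (0.841, 8.08 against 8.44 to 8.51), Mki67 (0.874, 8.12 against 8.59 to 8.66) and Thy1 (0.851, 0.79 against 1.70 to 1.85). The library of 114 h replicate A was lower for Fgfr4 (0.846, -1.68 against -0.52 to -0.31), Hoxb2 (0.854, -0.74 against 0.33 to 0.52), Myl7 (0.892, -5.38 against -2.14 to -1.75) and Tcl1 (0.932, 3.41 against 4.07 to 4.12), and higher for Itgb8 (0.897, 4.15 against 3.52 to 3.59) and Wnt8a (0.902, 3.17 against 2.79 to 2.83). Wnt7b was lower in 120 h replicate A (0.857, 2.44 against 2.89 to 2.97). Xist, the RNA that coats the inactive X chromosome, was higher in 120 h replicate B (0.891, 2.15 against -0.52 to -0.23).

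The 120 h and 114 h libraries differed for 6 genes (limma, adjusted p between 1.06e-05 and 5.43e-05). Naaladl1 was higher at 120 h by 2.03 on the log2 scale, Ano9 by 1.23, D430042O09Rik by 1.11, Neat1 by 1.09 and Tex14 by 1.09, and Car2 had a difference of -0.87.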

How the results depend on the processing

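With only the 6 libraries fitted, 1332 genes were lower as 3 time points, and as 4 libraries against 2, 1313 were higher and 709 lower, 256 of the latter at least 4-fold. On the log2(CPM + 1) scale 494 genes were at least 4-fold higher and 216 lower, since this scale shrinks differences of low genes. At an adjusted p under 0.05, 4405 were higher and 4329 lower, and 862 differed between 120 h and 114 h. Leaving out 1 library at a time gave 1675 to 2224 higher and 1243 to 1927 lower genes, and 0 to 3 between 120 h and 114 h. For Neat1 (0.48), Fn1 (0.03158) and Nodal (-0.02117) the sign at 120 h alone was opposite to that of the pooled late libraries. The named genes were chosen with the signs under the settings known, so no count of reversals among them is given. Of all 583 measured members of the lists, 42 changed sign in at least 1 of 17 settings, and these were among the 242 that were not called. None of the 4570 called genes changed sign. Of the 295 named genes, 51 were no longer called with 4 libraries against 2, 32 without the 0 h library of replicate A and 29 without that of replicate B. Scaling to total counted reads gave 46.3% of the calls as higher and quantile normalization 49%, against 52.9%, with shifts of the median of all genes of -0.085 and -0.059. With the filter on low values, all 244 named genes that were still tested kept direction and call, but 51 were not tested, which left 4 gains of the primitive streak list, 0 of mesoderm, 5 of neuroectoderm, 2 of fibroblasts and 12 of the matrix. With 4 libraries against 2, 3 falls were left of Polycomb, 9 of cholesterol synthesis and 5 of the cell cycle. The causes were not tested. A level under 0.109 to 0.144 CPM, or 3 reads, could not be told from 0.

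With the replicate letter as a block, 2672 genes were higher and 2338 lower, and 17 differed between 120 h and 114 h. The letters A and B are not stated to mark a shared culture or day. The pairing was checked on the deviations from the time point means, which correlated across genes at 0.18 between 0 h and 114 h, 0.12 between 0 h and 120 h and 0.05 between 114 h and 120 h, with a mean of 0.08 over 210 pairs of time points, so the block was not used for the counts of the report.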

Other observations

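Metabolic and stress genes beyond those described above moved unevenly. Of 25 genes of glycolysis and hypoxia, 7 were lower and 2 higher, with a median difference of -0.44 against -0.003 over all genes. Pfkp, the platelet form of phosphofructokinase, fell from 8.96 and 8.87 log2 CPM to 5.97, 6.16, 6.33 and 6.40 (-2.69 ± 0.08, adjusted p = 3.47e-21), and Hk1, a hexokinase, from 7.36 and 7.20 to 5.62, 5.22, 6.13 and 5.87. The oxygen sensor gene Egln3 fell by 1.97 and the glucose transporter gene Slc2a1 rose by 0.86. The count of falls depended on the scaling, with 11 under total counted reads and 13 under quantile normalization. Of 17 targets of p53, 9 were higher (52.9%, against 16.9% of all genes) and 1 lower (5.88%, against 15.1%), with a median of 0.79. Plk2 was at 1.86, Ccng1 at 1.21 and Mdm2 at 1.07, while Sesn1 fell by 1.56. Without either of the 0 h libraries 5 of the 9 were called. Of 18 metallothionein, heat shock and NRF2 genes 3 were higher (16.7%, near the 16.9% of all genes) and 1 lower.

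Other signalling genes are set beside the 16.9% of all genes called higher and the 15.1% called lower. In the LIF pathway the receptor gene Lifr fell from 6.58 and 6.49 log2 CPM to 4.47, 4.39, 4.95 and 4.79 (-1.88 ± 0.14, adjusted p = 4.21e-12), Lif rose from 1.28 and 1.83 to 3.69, 3.87, 3.18 and 3.47, and 8 of 10 members, Stat3 (-0.17) and Socs3 (-0.39) among them, were not called. Of 17 retinoic acid genes 6 were higher (35.3%) and 2 lower, with Crabp2 at 3.69, Rdh10 at 2.99 and Cyp26a1, which degrades retinoic acid, at 143 times its CPM at 0 h (counting interval 48.9 to 697). Of 11 Hedgehog genes 4 were higher and 2 lower, with Gli3 at 3.75 and Gli1 at -1.12. Of 15 Notch genes 2 were higher (13.3%) and 1 lower (6.67%), both below the shares of all genes. Of 13 germline genes 3 were higher and 1 lower, and of 17 abundant long noncoding RNAs 5 were higher and 2 lower, with Malat1 (0.48) not called.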
